A study of Mus musculus with 2 samples.

Results

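The Hoxd cluster is a row of homeobox genes on mouse chromosome 2, and it is described here together with the genes that flank it, Evx2 and Lnpk on the side of Hoxd13 and Mtx2 on the side of Hoxd1. The genes were taken by symbol from the authors' deposited table of protein-coding genes, which compares distal with proximal areas of limb-mesenchymal organoids. Of 12 genes named (9 Hoxd genes and the 3 flanking genes), 9 have a line among the 13916 genes of that table, and Hoxd1, Hoxd3 and Hoxd4 are not analysed here. The areas were captured by photo-isolation chemistry, in which light-sensitive primers copy RNA inside a tissue section and ultraviolet light releases the copies of chosen areas. Both groups were mesenchymal cells of the outbred strain Slc:ICR, grown as organoids for 48 h in medium with Fgf8b and Wnt3a, and the labels of both give 5 organoids of 4 cultures, frozen on day 2. The cryosections, 10 µm thick and fixed in 4% PFA, were lit for 3 min with 365 nm light under a 20x objective. The distal group was 1 library pooled from 5 barcoded regions and the proximal group was 1 library pooled from the other 5, so the side of the organoid and the library cannot be told apart. The labels do not say which region came from which organoid, so p-values and SDs measure the spread between regions, part of which may be technical.

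Hoxd genes encode DNA-binding homeodomain proteins, and their order along the chromosome mirrors where they act along the body axis and the limb, with Hoxd13 at the most posterior and most distal end. In the limb bud the cluster is known to be read from both sides: enhancers in the gene desert beyond Mtx2 act early and in the proximal limb, mainly on the genes from Hoxd1 to Hoxd11, and enhancers beyond Lnpk act later in the digit field, mainly on Hoxd13 and, less strongly, on its neighbours down to Hoxd10. Evx2, another homeobox gene, and Lnpk, which encodes lunapark, a protein of endoplasmic reticulum junctions, lie on the digit enhancer side and are known to respond to those enhancers, whereas Mtx2 encodes metaxin 2, a subunit of a mitochondrial import complex, and is expressed in most cells.

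The start sites of 4 of these genes are shown to let the pair called below, Hoxd13 and Hoxd12, be read beside Evx2, which is transcribed from the opposite strand next to Hoxd13, and Hoxd10, which was not called and had a fitted change near 0. Each line is the 250 bases before a RefSeq start on GRCm38.p6, 5′ to 3′ along the gene, with capitals on matches to any of the motifs searched. The windows are chr2:74659558-74659807 on the minus strand for Evx2 and, on the plus strand, chr2:74667975-74668224 for Hoxd13, chr2:74674763-74675012 for Hoxd12 and chr2:74691641-74691890 for Hoxd10.
Evx2: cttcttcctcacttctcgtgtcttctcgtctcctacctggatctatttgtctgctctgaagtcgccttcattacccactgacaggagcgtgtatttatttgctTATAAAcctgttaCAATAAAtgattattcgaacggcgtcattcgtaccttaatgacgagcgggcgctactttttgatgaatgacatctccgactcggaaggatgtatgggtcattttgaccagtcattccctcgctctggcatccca
Hoxd13: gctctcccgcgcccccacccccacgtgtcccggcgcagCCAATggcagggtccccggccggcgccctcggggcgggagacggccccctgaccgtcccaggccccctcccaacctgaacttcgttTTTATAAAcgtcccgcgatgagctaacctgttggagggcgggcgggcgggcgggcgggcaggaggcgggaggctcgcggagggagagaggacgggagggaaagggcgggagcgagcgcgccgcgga
Hoxd12: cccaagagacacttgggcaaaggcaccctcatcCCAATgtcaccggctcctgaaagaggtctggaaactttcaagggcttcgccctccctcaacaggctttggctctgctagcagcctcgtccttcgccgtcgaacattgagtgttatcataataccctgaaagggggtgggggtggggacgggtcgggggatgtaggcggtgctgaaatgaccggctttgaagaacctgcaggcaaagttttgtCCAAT
Hoxd10: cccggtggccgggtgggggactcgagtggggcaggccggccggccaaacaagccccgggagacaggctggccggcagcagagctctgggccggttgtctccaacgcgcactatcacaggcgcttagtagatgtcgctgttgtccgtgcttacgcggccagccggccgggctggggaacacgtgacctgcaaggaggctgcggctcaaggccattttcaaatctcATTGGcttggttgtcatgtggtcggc

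The motifs searched on both strands were TATAAA, found in 12.4% of 32851 windows of the same length, CCAAT, found in 33.8%, the core TTTATNG bound by group 13 HOX proteins, found in 9.81%, the core CTTTGNT bound by TCF and LEF factors, found in 16%, and the GLI site GACCACCCA, found in 0.225%. The Hoxd13 window held TATAAA on both strands in 1 overlapping stretch, starting 126 and 124 bases before the start, and a CCAAT 212 bases before it. Hoxd12 had a CCAAT 217 bases and another 5 bases before the start, and Hoxd10 had 1 on the reverse strand, 26 bases before it. Evx2 held TATAAA 147 bases before its start and the group 13 core, reversed, 134 bases before it. CTTTGNT and GACCACCCA were not found in these 4 windows. The 4 windows differed in base composition. Hoxd13 had a GC content of 74.4% and 31 CpG, Hoxd10 65.6% and 20, Hoxd12 55.6% and 10, and Evx2 45.6% and 14, beside medians of 52.4% and 6 CpG over all windows. These are descriptions of letters in a window, and no binding was measured.

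The table gives 1 mean, 1 log2 change and 1 standard error per gene, but its lowest means fell on 10 steps, each the worth of 1 count in 1 region, from which the size factor (the relative depth) of each region was read. For 8 of the 9 genes exactly 1 of the searched sets of whole counts in the 10 regions returned the deposited mean, log2 change and standard error. The refitted log2 changes of these 8 genes differed from the deposited ones by at most 4.8e-10, and for the 6 of them with a mean of at least 10 the number of accidental matches expected was at most 0.041. The counts of Hoxd13 were too high for this search. Regions are numbered here from the deepest to the shallowest of their side, which is not the numbering of the labels. Distal regions were shallower, with size factors from 0.329 to 0.832, than proximal regions, with 1.5 to 2.42, so that the distal side held 23.3% of the summed size factors. A normalized count is a count divided by the size factor of its region.

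Hoxd13 and Hoxd12, the neighbours at the posterior end of the cluster, were higher in distal areas by 2.23-fold and 2.14-fold in the authors' deposited table. They were the 2 of 9 genes with an adjusted p under 0.05. Of all genes 0.395% were called higher in distal, 0.582% higher in proximal and 0.977% in either direction. At an unadjusted p under 0.05, 4 of the 9 genes were higher in distal (Lnpk, Evx2, Hoxd13 and Hoxd12) and 0 were higher in proximal, where all genes had 2.56% and 3.51%, or 6.07% in either direction. These shares of all genes include 4312 genes with a mean under 1, whereas 7 of the 9 genes had a mean of at least 10. Among all 3757 genes with such a mean, the authors' adjusted p picked 114, with 51 positive and 63 negative changes. At the unadjusted limit there were 451 of the 3757, with 241 positive and 210 negative changes. The median log2 change of the 9 genes was 0.61 in the authors' deposited table, and that of all genes was 0.07. In the order of the genes on the chromosome, from Hoxd13 to Hoxd10, the authors' deposited table gave log2 changes of 1.16, 1.1, 0.46 and 0.02. The 95% intervals of Hoxd13 (0.89 to 1.42) and Hoxd12 (0.67 to 1.52) in the authors' deposited table did not overlap that of Hoxd10 (-0.57 to 0.61), and both overlapped that of Hoxd11 (-0.02 to 0.94). The differences between the genes' changes were not tested.

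**Figure D1:**
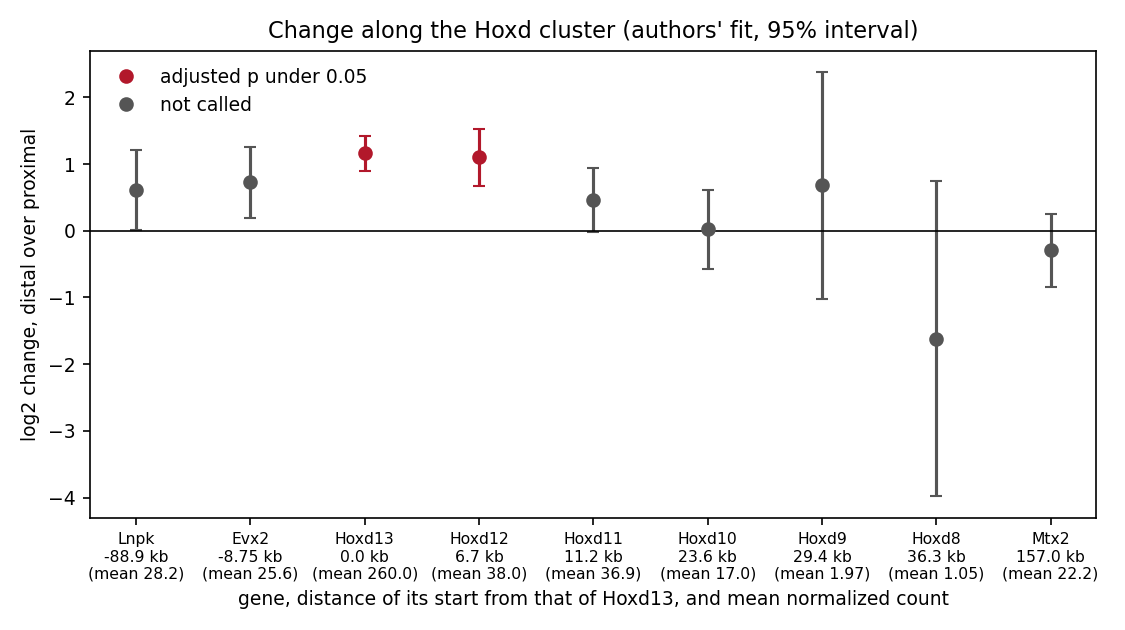
Log2 change of distal over proximal (vertical axis) for the 9 genes in chromosome order, from the authors' deposited table. Points are the fitted changes and bars their 95% intervals. Red marks an adjusted p under 0.05, and the labels give the distance from the Hoxd13 start in kb and the mean normalized count. Hoxd13 at 1.16 and Hoxd12 at 1.1 are the red points, Evx2 and Lnpk stand at 0.73 and 0.61, and the intervals of Hoxd9 and Hoxd8, with means of 1.97 and 1.05, are the widest.

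Hoxd13 (chromosome 2, 74668310 to 74671599 on the plus strand, GRCm38), the main HOX gene of the digits, was the most abundant of these genes. Its mean over the 10 regions was 260 normalized counts in the authors' deposited table, or 105 per kb of exon. From that mean and log2 change, the level was computed as 359 normalized counts in distal areas and 161 in proximal areas, about 1052 and 1557 counts. In the 6 recovered genes of the cluster and its flanks with a mean of at least 10 such computed levels were off by at most 2.51%. Among the recovered genes of the surrounding chromosome with such a mean, the largest error was -4.53%, for Agps in distal. In the authors' deposited table it rose by 1.16 ± 0.14 (SE) on the log2 scale (fold 1.85 to 2.68, 95% interval), and its adjusted p, 2.29e-14, ranked 6 among all genes. Of the genes with a mean of at least 10, 99.5% had a lower log2 change. Counting alone would give a standard error of 0.058 against the deposited 0.136, or 18% of its variance, so most of the error of Hoxd13 was spread between regions. That spread was computed as 13.4%, and its values per region are not given here.

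Hoxd12 (74675013 to 74677705, plus strand), which starts 6.70 kb from Hoxd13, was higher in every distal region than in every proximal region. From the deepest to the shallowest, the distal regions had 33, 42, 20, 24 and 26 counts, or normalized counts of 39.7, 60.1, 35.8, 47.0 and 79.1. The proximal regions had 51, 55, 49, 33 and 39 counts, or 21.1, 24.9, 25.1, 21.1 and 26. The lowest distal region thus stood above the highest proximal region, and Hoxd12 was the 1 gene of the 8 recovered whose sides did not overlap. The sides of all 12 recovered genes of the surrounding chromosome overlapped. Among 6 recovered muscle markers, those of Myog, lower in distal, did not. The share over all genes was not computed. Means were 52.3 ± 17.6 in distal and 23.6 ± 2.35 in proximal (SD, n = 5 regions). Summed over regions, 145 distal and 227 proximal counts gave a ratio per size factor of 2.11, with an exact (Clopper-Pearson) counting interval of 1.70 to 2.60, which like the other intervals of this kind covers counting error only. Its log2 change, 1.1 ± 0.22 (SE), passed the test in the authors' deposited table (adjusted p 1.08e-04).

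**Figure D2:**
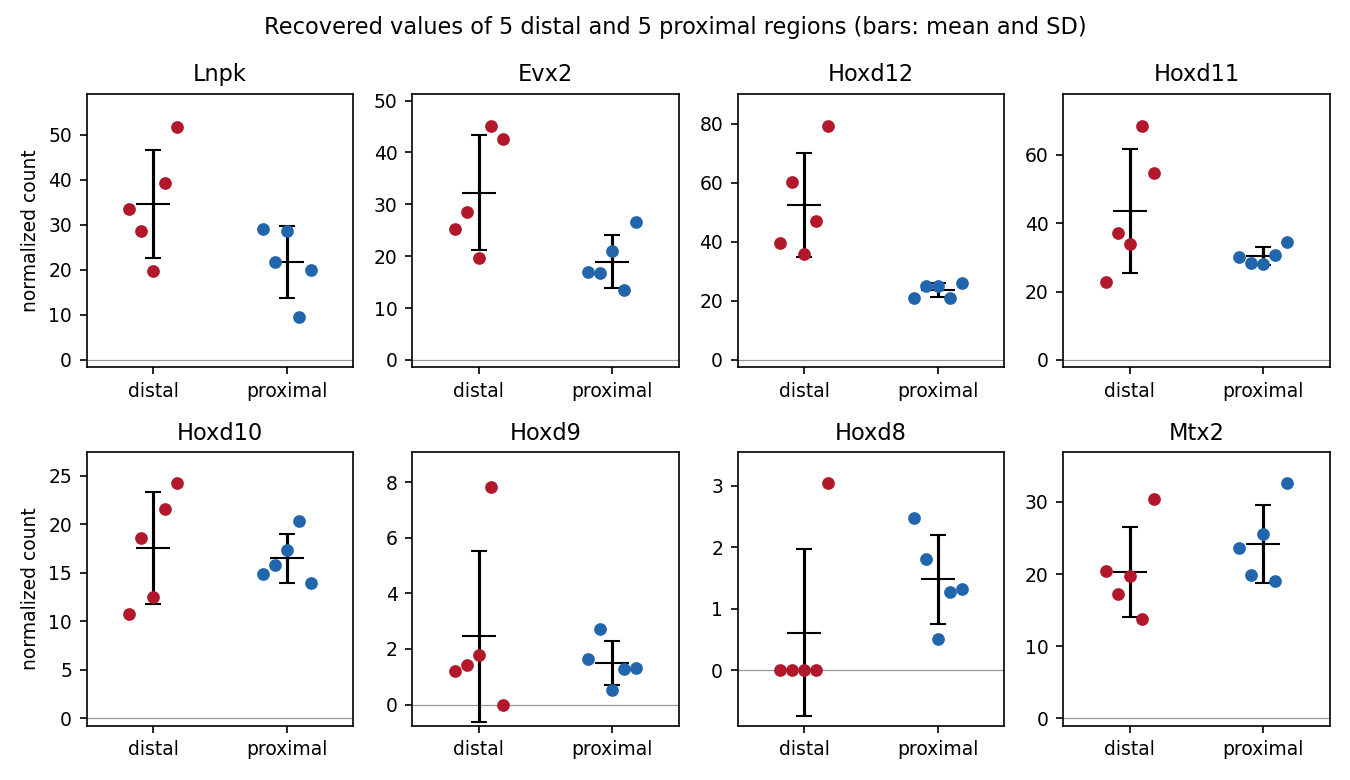
Normalized counts (vertical axes, each with its own scale) in the 5 distal regions (red) and 5 proximal regions (blue) for the 8 genes with recovered counts. Within a side the points run from the deepest region on the left to the shallowest on the right, and black bars are the mean and SD. The Hoxd12 points of the sides are apart (35.8 to 79.1 above 21.1 to 26), while those of Hoxd10 and Mtx2 lie over each other.

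Hoxd11 (74679557 to 74687016, plus strand), known for its part in the forearm and in the digits, was more uneven among distal regions. Its distal normalized counts were 22.8, 37.2, 34, 68.6 and 54.8, and its proximal ones 30.2, 28.5, 28.1, 30.6 and 34.6. The proximal regions lay close together, and of the distal regions 3 stood above the highest proximal region and 1, the deepest, below the lowest. The means were 43.5 ± 18.1 and 30.4 ± 2.58 (SD, n = 5 regions), from 117 distal and 291 proximal counts. The ratio of summed counts per size factor was 1.33 (counting interval 1.06 to 1.65). The authors' deposited table put Hoxd11 at 0.46 ± 0.25 (SE) on the log2 scale (adjusted p 0.991), so the difference did not pass the test. Without the 2 shallowest distal regions the refitted change of Hoxd11 was 0.03 ± 0.29 (SE).

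Hoxd10 (74691924 to 74695105, plus strand), 23.6 kb from Hoxd13, had overlapping sides. Its distal values were 10.8, 18.6, 12.5, 21.6 and 24.3 normalized counts, and its proximal values were 14.9, 15.8, 17.4, 20.4 and 14. Both the lowest and the highest of the 10 regions were distal. The means were 17.6 ± 5.79 and 16.5 ± 2.53 (SD, n = 5 regions), and 48 distal and 158 proximal counts gave a ratio per size factor of 1.0 (counting interval 0.709 to 1.39). On the log2 scale the authors' deposited table put Hoxd10 at 0.02 ± 0.30 (SE, adjusted p 0.9998). Its interval of -0.57 to 0.61 in the authors' deposited table covers changes of up to 1.52-fold in favour of distal, so a difference within it cannot be told from none. That upper end is not a limit of detection. Evx2, at 1.65-fold, was not called either.

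The next genes along the cluster, Hoxd9 and Hoxd8, which act in both proximal limb and trunk, were close to the limit of detection. Hoxd9 (74697727 to 74700208) had 1, 1, 1, 4 and 0 counts in the distal regions and 4, 6, 1, 2 and 2 in the proximal regions. Of its 7 distal counts 4 came from 1 region, and the shallowest distal region had none, a count that allows up to 3. Hoxd8 (74704615 to 74707933) had 0, 0, 0, 0 and 1 distal counts against 6, 4, 1, 2 and 2 proximal counts. A count was thus found in every proximal region and in 1 distal region. The ratio of distal to proximal per size factor was 1.54 for Hoxd9, with a counting interval of 0.531 to 4.01. For Hoxd8 it was 0.220, with an interval of 0.00522 to 1.43. The authors' deposited table gave Hoxd9 a log2 change of 0.68 ± 0.87 (SE) and Hoxd8 one of -1.62 ± 1.21 (SE), with the same adjusted p for both, 0.991, so at this depth no difference was detectable for either gene. In bulk regions fewer cells with a transcript and less transcript per cell cannot be told apart.

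On the other side of Hoxd13, Evx2 (74652991 to 74659557, minus strand) starts 8.75 kb away and is read in the opposite direction. Its distal normalized counts were 25.2, 28.6, 19.7, 45.1 and 42.6, and its proximal ones 17, 16.7, 21, 13.4 and 26.6. Of the distal regions 3 stood above the highest proximal region, and the lowest distal region was below 2 of the proximal ones. The means were 32.2 ± 11.1 and 18.9 ± 5.07 (SD, n = 5 regions), and 89 distal against 180 proximal counts gave a ratio of 1.63 per size factor (counting interval 1.25 to 2.11). Evx2 stood at 0.73 ± 0.27 (SE) on the log2 scale in the authors' deposited table and was not called (unadjusted p 0.00782, adjusted p 0.348).

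Lnpk (74520291 to 74579435, minus strand), 88.9 kb from Hoxd13, had distal normalized counts of 33.6, 28.6, 19.7, 39.2 and 51.7 and proximal ones of 29.0, 21.7, 28.6, 9.57 and 20.0. The sides overlapped, with the lowest value in the 4th proximal region and the highest in the shallowest distal region. The means were 34.6 ± 12 and 21.8 ± 7.92 (SD, n = 5 regions), and the ratio of 96 distal to 219 proximal counts per size factor was 1.45 (counting interval 1.12 to 1.85). Its log2 change in the authors' deposited table was 0.61 ± 0.31 (SE, unadjusted p 0.0460, adjusted p 0.888). Neither flanking gene of this side therefore passed the test, and the upper ends of their intervals in the authors' deposited table, 1.26 for Evx2 and 1.21 for Lnpk, lie above the change of Hoxd13. Without the 2 shallowest distal regions the refitted change was 0.39 ± 0.32 (SE) for Evx2 and 0.33 ± 0.36 (SE) for Lnpk.

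Mtx2 (74825803 to 74878431, plus strand), beyond the other end of the cluster and 157 kb from Hoxd13, was not higher in distal. Its normalized counts were 20.4, 17.2, 19.7, 13.7 and 30.4 in distal and 23.6, 19.9, 25.6, 19.1 and 32.6 in proximal regions. The shallowest region of each side was the highest of its side, and the sides overlapped. With 57 distal and 230 proximal counts the ratio per size factor was 0.817 (counting interval 0.60 to 1.1). Mtx2 stood at -0.29 ± 0.28 (SE) on the log2 scale in the authors' deposited table (adjusted p 0.991).

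Ratios between genes in the same region do not depend on the region's size factor. There were 3.23 Hoxd12 counts for each Hoxd10 count in the median distal region (range 2.18 to 3.67) and 1.44 in the median proximal region (1.03 to 1.86). For Hoxd12 against Mtx2 the ratio was 2.60 in distal (1.82 to 3.50) and 0.980 in proximal (0.796 to 1.25). In both pairs the lowest distal ratio was above the highest proximal ratio. Hoxd12 alone was already apart between the sides, and the changes of Hoxd10 and Mtx2 were 0.02 and -0.29 in the authors' deposited table. The 2 ratios are therefore not separate support for the difference of Hoxd12. Evx2 against Mtx2 had a median of 1.4 in distal (1.0 to 3.29) and 0.816 in proximal (0.70 to 0.841), also without overlap. Lnpk against Mtx2, at 1.67 (1.0 to 2.86) and 1.09 (0.50 to 1.23), and Hoxd11 against Hoxd10, at 2.25 (2.00 to 3.18) and 1.80 (1.5 to 2.48), did overlap. The ratio of Hoxd12 to Hoxd11 was 1.44 in the median distal region (0.686 to 1.74) and 0.750 in the median proximal region (0.688 to 0.891), with overlap. These 6 ratios were described and not tested, and those with a common gene share its counts. How often other pairs of genes are without overlap was not computed.

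Distal values were read against depth, and they did not rise steadily toward the shallowest region. The lowest distal value of Mtx2 (13.7) lay in the 4th region and that of Hoxd9 (0) in the shallowest. For all 8 recovered genes the highest distal normalized count lay in 1 of the 2 shallowest distal regions, with size factors of 0.510 and 0.329, and the same was seen for 5 of the 11 recovered genes of the surrounding chromosome that had a distal count. In 5 of the 6 recovered genes with a mean of at least 10, Lnpk being the exception, the coefficient of variation was larger in distal than in proximal. Counting noise is larger at the lower distal depth, and its part in this difference was not tested. With those 2 regions left out, a choice made after their values were seen, the refitted log2 change of Hoxd12 was 0.95 ± 0.25 (SE, unadjusted p 1.50e-04), still below the largest p that the authors' deposited table calls, 4.65e-04. Hoxd13 could not be refitted in this way. When regions were left out 1 at a time, the change of Hoxd12 ranged from 0.96 to 1.2 and passed that limit in 10 of 10 refits. Hoxd11 ranged from 0.22, without the 4th distal region, to 0.65, and Evx2 from 0.56 to 0.87. Lnpk ranged from 0.43, without the 4th proximal region, to 0.76, Mtx2 from -0.42 to -0.17 and Hoxd8 from -2.39 to -1.33, so these genes kept their sign in every refit. Hoxd10, between -0.08 and 0.19, kept its sign in 5 of 10 refits, and Hoxd9 fell to -0.31 without the distal region that held 4 of its counts.

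**Figure D3:**
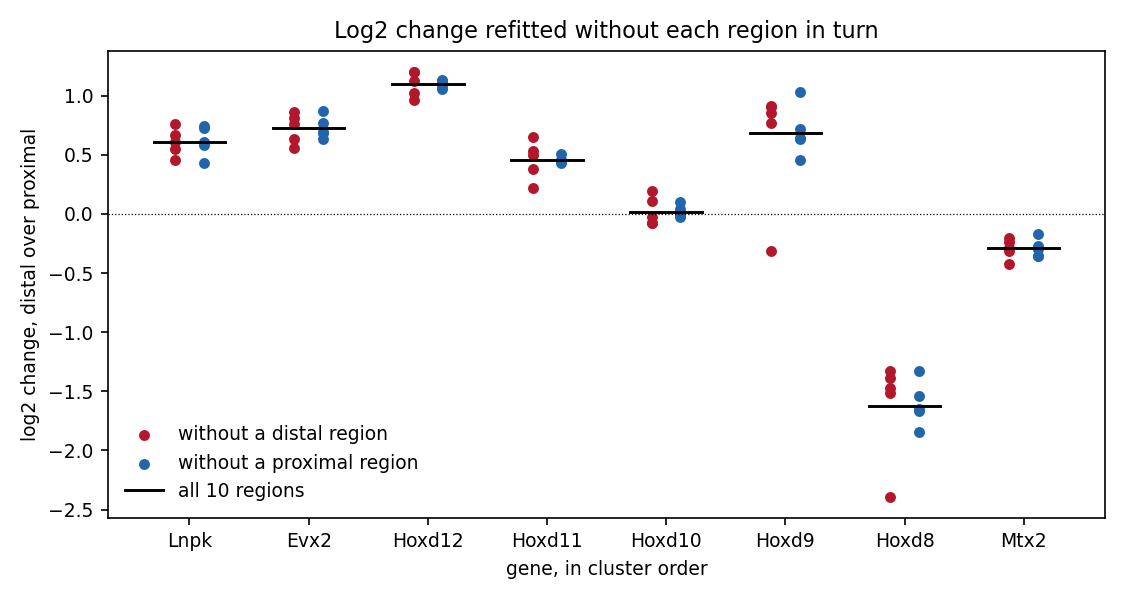
Log2 change of distal over proximal (vertical axis) for the 8 genes with recovered counts, refitted with 1 region left out. Red points leave out a distal region, blue points a proximal region, and black bars are the change with all 10 regions. Hoxd12 stays between 0.96 and 1.2, Hoxd10 lies on both sides of 0, and the lowest Hoxd9 point, at -0.31, is the refit without its highest distal region.

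Levels of different genes were compared per kb of exon, which assumes reads along the whole transcript. Whether reads covered whole transcripts is not given in the sources used here. If they came from transcript ends only, the division by exon length would not apply. The undivided means put Hoxd11, Lnpk, Evx2 and Mtx2 above Hoxd10. The comparisons between genes that follow rest on the assumption. The order per kb was Hoxd13 (105 normalized counts per kb), Hoxd12 (15), Hoxd10 (9.38), Hoxd11 (8.77), Evx2 (6.11), Mtx2 (6.05), Lnpk (3.08), Hoxd9 (0.925) and Hoxd8 (0.381). That order rests on means over both sides, and neighbours in it were compared within a side. In distal regions Hoxd12 (14.1 to 31.2 per kb) lay wholly above Hoxd10 (5.96 to 13.4), while in proximal regions the ranges overlapped (8.31 to 10.2 and 7.70 to 11.2). Hoxd10 and Hoxd11 overlapped on both sides, with 5.42 to 16.3 for Hoxd11 in distal and 6.68 to 8.22 in proximal. Evx2 overlapped Hoxd11 in distal (4.70 to 10.8) and lay wholly below it in proximal (3.20 to 6.35). The order of Evx2 and Mtx2 turned between sides, with computed levels of 7.61 and 5.44 per kb in distal and 4.6 and 6.66 in proximal, although their regions overlapped on each side. Lnpk overlapped Mtx2 in distal (2.15 to 5.65 and 3.73 to 8.28) and lay wholly below it in proximal (1.05 to 3.16 and 5.21 to 8.88). Hoxd9 overlapped Lnpk and Hoxd8 on both sides. The levels computed for Hoxd13, 145 per kb in distal and 65.0 in proximal, lay above every regional value of the other genes. In GENCODE M21 the exons or introns of Hoxd11 and Hoxd10 overlap Gm28309 on the same strand, those of Mtx2 overlap Gm14425 on the same strand, and Hoxd8 and Lnpk overlap the antisense genes Hoxd3os1 and 4930445N08Rik. How reads over these overlaps were counted is not given in the sources used here, so the values of these 5 genes may hold or lack such reads.

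**Figure D4:**
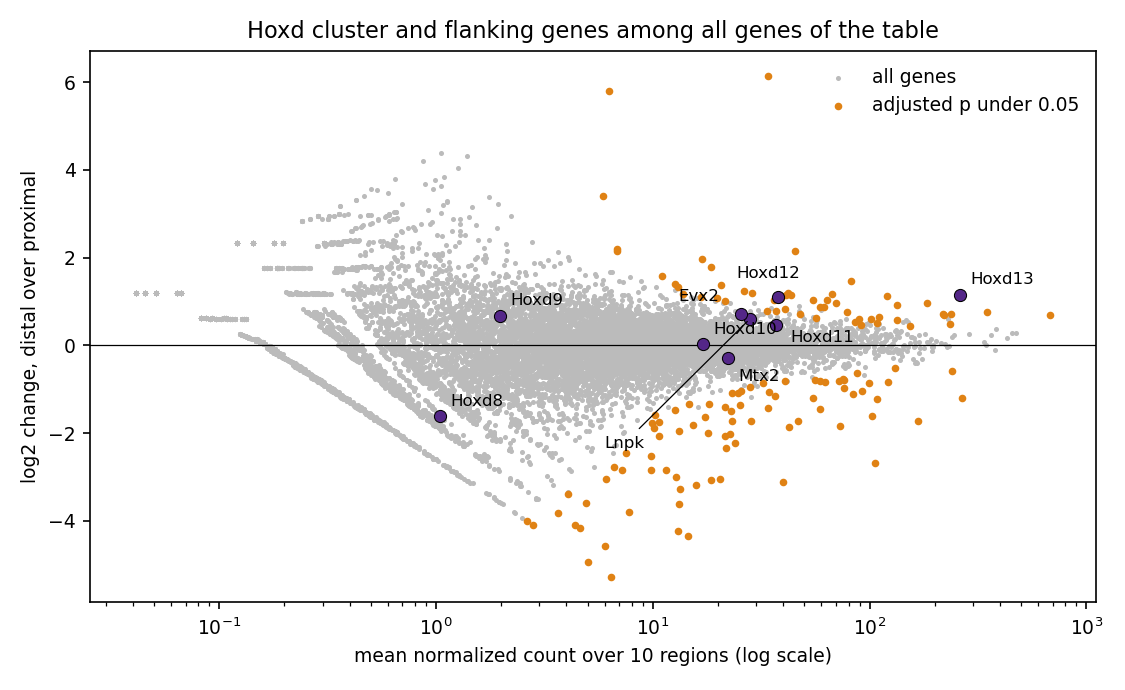
Log2 change of distal over proximal (vertical axis) against the mean normalized count over the 10 regions (horizontal, log scale) for all genes of the authors' deposited table. Grey points are all 13916 genes, orange points those with an adjusted p under 0.05, and purple points the 9 genes described. Hoxd13, at a mean of 260, and Hoxd12, at 38.0, lie among the orange points, while Hoxd9 and Hoxd8 lie at low means where changes of either sign spread widely.

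The called genes whose log2 change was closest to the 1.16 of Hoxd13 in the authors' deposited table were Mif at 1.16, Tspan18 at 1.15, Rpl10-ps3 at 1.17, Lrrc8d at 1.18 and Eif5a at 1.19. The likeness is in the size of 1 contrast between 2 libraries. The closest of them, Mif, differed from Hoxd13 by 0.002 in log2 change in the authors' deposited table and had a mean of 41.4.

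The surrounding chromosome was read from 13 further genes. On the Lnpk side, none of 5 genes was called, with 4 positive changes, 1 negative and a median of 0.12 in the authors' deposited table. The nearest gene there, Atp5g3, a subunit of the mitochondrial ATP synthase 757 kb away, had a change of 0.21 ± 0.16 (SE) in the authors' deposited table. Further out in the authors' deposited table were Atf2 at 0.00 ± 0.25, Chn1 at 0.12 ± 0.53, Chrna1 at -1.0 ± 1.19 and Wipf1 at 0.41 ± 0.30 (SE). On the Mtx2 side, 0 of 8 genes were called, with 1 positive change, 7 negative and a median of -0.32 in the authors' deposited table. Nfe2l2, which encodes a regulator of the oxidative stress response, had the lowest unadjusted p of these, 0.0169, with a change of -0.91 ± 0.38 (SE, adjusted p 0.541) in the authors' deposited table. In the authors' deposited table the others on that side were Hnrnpa3 at -0.28 ± 0.24, Agps at -0.37 ± 0.33, Ttc30b at -0.85 ± 1.09, Ttc30a1 at -1.09 ± 0.88, Rbm45 at -0.25 ± 0.36 and Osbpl6 at -0.24 ± 0.55 (SE). Pde11a, the positive change on the Mtx2 side, rested on 1 count in a proximal region and 0 counts in distal regions. Its positive sign therefore does not show more transcript in distal. No gene within either flank passed the test, which 0.977% of all genes did, and the difference between the flanks was not tested.

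**Figure D5:**
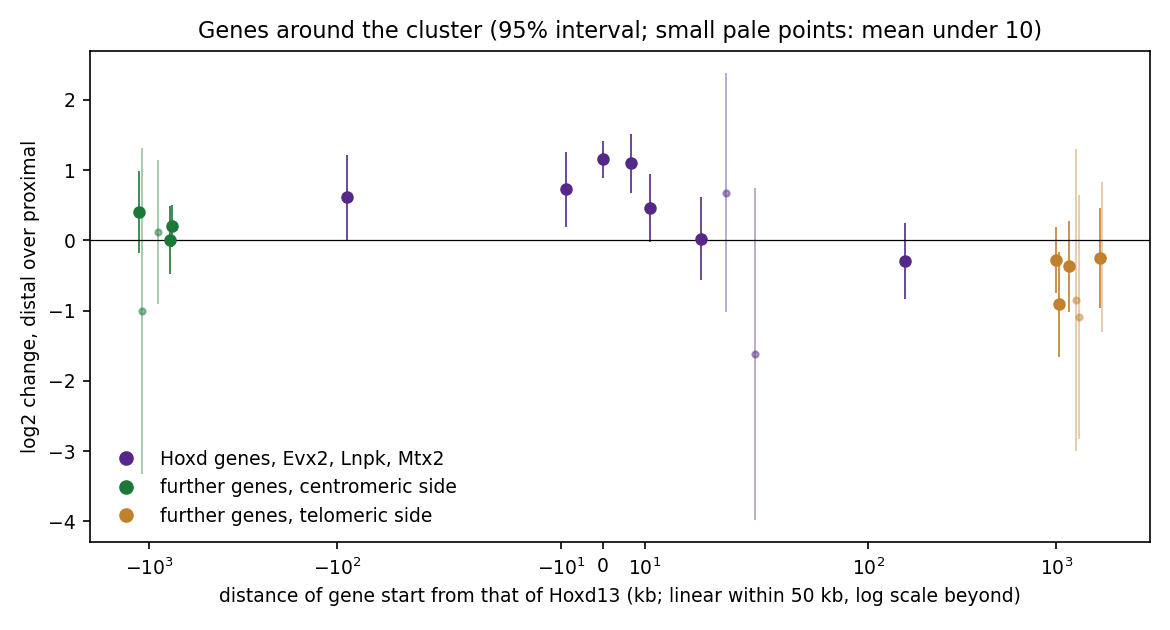
Log2 change of distal over proximal (vertical axis) against the distance of each gene's start from that of Hoxd13 in kb (horizontal, linear within 50 kb and logarithmic beyond), from the authors' deposited table. Purple points are the Hoxd genes, Evx2, Lnpk and Mtx2, green and brown points are further genes on the Lnpk and the Mtx2 side, bars are 95% intervals, small pale points have means under 10, and Pde11a is left out for its mean under 1. The 2 intervals that stand farthest above 0 belong to Hoxd13 (0.89 to 1.42) and Hoxd12 (0.67 to 1.52).

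Of the 11 paralogs of groups 9 to 13 in the other clusters, 4 were in the table, all in the Hoxa cluster, which acts together with Hoxd in limb patterning, and 0 of the 4 were called. Hoxa13, the digit paralog of Hoxd13, had a log2 change of 0.56 ± 0.20 (SE, adjusted p 0.255) in the authors' deposited table. The other 3 were negative in the authors' deposited table: Hoxa11 at -2.34 ± 0.75 (SE, adjusted p 0.144), Hoxa10 at -0.83 ± 0.24 (0.0609) and Hoxa9 at -0.33 ± 0.24 (0.991). For group 11, the intervals of Hoxd11 (-0.02 to 0.94) and Hoxa11 (-3.82 to -0.86) did not overlap in the authors' deposited table. For group 10, that of Hoxd10 (-0.57 to 0.61) and that of Hoxa10 (-1.30 to -0.36) in the authors' deposited table overlapped. The paralogs of groups 1 to 8 gave 5 of 19 genes in the table and 0 called. Over all genes 0.977% were called, so 0 calls among so few paralogs is not read as a result.

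Among 9 TALE homeobox genes, whose proteins bind DNA together with HOX proteins, 1 was called. Pbx3 was lower in distal, at -2.08 ± 0.47 (SE, adjusted p 0.00212) on the log2 scale in the authors' deposited table. Meis1 and Meis2, known as genes of the proximal limb and named here after their values were seen, had means of 0.0452 and 0.0925 normalized counts in the authors' deposited table, too low for a comparison. Of 17 genes of the signals known to act on Hoxd expression, 13 were in the table and 1 was called. Wnt5a, a Wnt ligand of the distal limb, was higher in distal by 0.96 ± 0.19 (SE) on the log2 scale (adjusted p 1.37e-04) in the authors' deposited table. Of 12 genes linked to targets of the group 13 HOX proteins, 2 were called in opposite directions. Dach1, a transcriptional regulator, was higher in distal by 0.87 ± 0.22 (SE, adjusted p 0.0110) and Epha3, an ephrin receptor, had a log2 change of -3.00 ± 0.59 (SE, adjusted p 9.02e-05) in the authors' deposited table. Those 12 genes had a median log2 change of -0.18, beside 0.07 over all genes, in the authors' deposited table. None of 26 Polycomb and trithorax genes, which keep Hox genes silent or active, and none of 11 genes of CTCF and cohesin, which shape the contacts of the cluster with its enhancers, was called by the authors' deposited adjusted p. Their medians in the authors' deposited table were -0.02 and 0.17, and at an unadjusted p under 0.05 the counts were 0 and 0. Over all genes 0.977% were called and 6.07% had an unadjusted p under 0.05. The counts of 0 in these lists are therefore not read as results about their genes.

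The labelled cell type was checked against 9 limb mesenchyme markers, all in the table, with computed levels that summed to 633 normalized counts in distal and 620 in proximal areas. Of these Msx1 was called higher in distal, and Tbx5 and Pdgfra higher in proximal. Muscle markers moved with the side. Of 7 in the table Myog and Actc1 were called higher in proximal, and the computed levels of the 7 summed to 10.1 in distal and 87.8 in proximal. Without Actc1, whose counts were not recovered, the other 6 summed to between 0 and 1.96 normalized counts in the distal regions (2 counts in all) and to between 8.30 and 25.6 in the proximal regions (173 counts). The part of these cells in the Hoxd values was not tested. Summed levels were 0.992 in distal and 0.619 in proximal for 4 of 7 ectoderm markers in the table, 2.33 and 0.699 for 4 of 6 endothelial markers, 0.608 and 1.1 for 2 of 7 blood markers, and 3.93 and 5.17 for 5 of 5 nerve and glia markers. Such computed levels are unreliable at low means. Pde11a, with 1 proximal and 0 distal counts, was computed as 0.0629 in distal and 0.0276 in proximal. For the muscle marker Myod1 the distal level was off by 57.91%. The 4 ectoderm, 4 endothelial and 2 blood markers all had means under 1, so the size and direction of their sums are not read.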

How the data were processed

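The authors' deposited table holds 1 comparison of distal with proximal, laid out, per the file headers, like the output of DESeq2. The mean is a signal in normalized counts over all regions, as deposited by the authors. The log2 change and its standard error are the authors' fit, positive where distal is higher. The deposited statistic is the authors' score, equal to the log2 change over its standard error within 1.9e-06. The p-value and adjusted p were deposited by the authors, who adjusted over their own set of genes. GRCm38 (mm10) is named per the submitters' processing notes. The aligner and the counting are not given in the sources used here.

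No new comparison of the sides was fitted beyond refits of the authors' model, whose p-values are unadjusted and were set beside the largest p called in the table, and Dixon's criterion for single regions. The 10 size factors came from steps of the lowest means shared by at least 20 genes. A region was taken as distal where the log2 change on its step was above the mean of the 10 steps, and otherwise as proximal. Count sets were searched for those that a negative binomial fit, with fitted means of at least 0.5, turns into the deposited mean, log2 change and standard error. All 4624 genes with a mean up to 1.2 gave exactly 1 set. The search for the more abundant genes covered sets near the computed levels of the sides, and it was tested on simulated data. In that small test not every simulated gene of middle abundance gave a set, and none gave a wrong one. Refits without regions keep each gene's dispersion and the size factors, and other thresholds, adjustments and centrings were tried as alternatives. The 95% intervals come from the deposited standard errors, or from exact binomial limits for counts. Genes were called at an adjusted p under 0.05.

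All members were named, with called genes of 9 further lists, the chromosome 2 neighbours, the paralogs of groups 9 to 13 and the 5 called genes nearest to Hoxd13. The members and lists were chosen with earlier results of these data known. Gene models were from GENCODE M21, and promoters, matched for 12 of 12 genes, from RefSeq. Python 3.11.15, numpy 2.4.6, scipy 1.17.1 and numba 0.67.0 were used.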

Additional observations from a re-analysis of the deposited data

Results flagged for a closer look

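Of 16 groups of 5 regions looked at (8 genes, both sides), 2 had a region far from the others by Dixon's criterion. For normally distributed values chance meets it in about 1 of 20 groups, a rate that does not hold for the few counts of these 2 groups. For Hoxd9 the highest distal region stood at 7.84 normalized counts and the next at 1.79, a gap of 0.772 of the range. That region held 4 counts. For Hoxd8 the highest distal region stood at 3.04 normalized counts and the other 4 at 0, a gap as wide as the range, and it held 1 count. A group with counts in only 1 region always gives such a gap.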

How the results depend on the processing

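Hoxd13 and Hoxd12 were the 2 genes called under all 5 alternatives for the call (an adjusted p under 0.01, adjustment over the genes in the table or over those whose mean is 10 or more, a log2 change of at least 1, and centring on the median of all genes). Of 122 log2 changes of the 9 genes under alternatives, 106 have a p, of which 97 kept their direction and their side of the limit and 9 changed sign, none of them called. The other 16, ratios of mean or summed counts with no p, lay within 1 deposited standard error of the deposited change. Hoxd10 fell to -0.05 when centred on the median of all genes, to -0.24 without the 2 shallowest distal regions, and ranged from -0.08 to 0.19 with regions left out 1 at a time. Hoxd9 fell to -0.08 without those 2 regions and ranged from -0.31 to 1.03 with regions left out 1 at a time. The 2 shallowest distal regions were left out together as a choice made after seeing the data. Of 27 counts for 9 gene lists, 3 moved: the paralogs of groups 9 to 13 had 1 called gene (Hoxa10) when adjusted over those whose mean is 10 or more and 1 when centred on the median of all genes, and the genes linked to group 13 targets had 1 (Epha3) at an adjusted p under 0.01. The cause was not tested. No paired analysis was possible because no column gives region numbers. The depth of the distal side (summed size factors 2.93 against 9.65) limits what could be seen for Hoxd9 and Hoxd8, and Hoxd13 has no check by region.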
